A study of Mus musculus with 13 samples.

Results

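The comparison set striatum of mice labelled homozygous for a STEP knockout against striatum of mice labelled wild type, and comprised 8 of the 13 arrays of the series. Ptpn5 encodes STEP, a tyrosine phosphatase enriched in striatum. The 8 arrays were chosen by genotype label alone, with 4 arrays labelled homozygous (HOM) and 4 labelled wild type (WT). The 5 arrays labelled heterozygous (HET) entered the fit for the estimate of the spread and are given for a few probe sets and 1 gene list. All mice were naïve males on a C57Bl/6J background, the wild types were littermates per the series' design text, and total RNA of each striatum sample was labelled with biotin as cRNA and hybridised to 1 Affymetrix array. The sources used here give neither ages nor how the Ptpn5 allele was disrupted. Intensities are on the linear scale on which they were deposited, and differences are HOM minus WT of mean log2(intensity + 16), which understates differences of dim probe sets.

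STEP is enriched in neurons of the striatum, which receives most input of the basal ganglia, where it sits in dendrites and spines. It removes phosphate from tyrosines of the MAP kinases ERK and p38, of the kinases Fyn and Pyk2 and of glutamate receptor subunits, and so opposes signalling that strengthens synapses. Calcium and ERK signals switch on activity-regulated genes, among them the transcription factors Fos and Egr2 and the synaptic gene Arc. The design asks how striatal transcripts differ when STEP is lost.

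The direction of every value below rests on the sample labels, because 2 deposited sources name the same arrays in opposite ways. A table of 4423 listed probe sets carries columns headed HOM1 to HOM4 and WT1 to WT4. Its HOM columns hold the values of the samples labelled wild type in the value table of the whole array, and its WT columns hold those of the samples labelled homozygous. In each of these 8 pairs 100% of the listed probe sets were the same within 0.51, the rounding of the listed table, whereas the heterozygous headings matched their own samples. By heading, Ptpn5 is therefore higher under HOM, and by sample label it is lower in HOM. Labels are used here, and all 82 probe sets named by the selection rule turn sign if the headings are followed instead.

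Ptpn5 was lower in all 4 HOM arrays on both of its probe sets. The first probe set read 364, 585, 559 and 434.5 in the HOM arrays, against 1954, 1556, 1452 and 1633 in the WT arrays. The second probe set read 1016, 1537.5, 1359.8 and 1134 in the HOM arrays, against 3882, 3289.8, 3326 and 3608 in the WT arrays. On neither probe set did the groups overlap. Means were 486 ± 105 in HOM and 1649 ± 217 in WT for the first probe set (SD, n = 4 each), a difference of -1.75 ± 0.17 (SE) with a limma adjusted p of 4.48e-06. For the second they were 1262 ± 232 in HOM and 3526.5 ± 276 in WT, a difference of -1.49 ± 0.15 with a limma adjusted p of 5.31e-06. Linear WT means were 3.39 and 2.79 times the HOM means on these probe sets. The HOM intensities still exceeded every array's median intensity, and the sources used here do not say where the probe sets lie relative to the disrupted part.

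Tlr4, the toll-like receptor that recognises bacterial lipopolysaccharide, rose in HOM. It read 74.3, 101, 81.5 and 94.8 in the HOM arrays, against 30.8, 20.6, 23.4 and 20.4 in the WT arrays, and the groups did not overlap. The means were 87.9 ± 12.1 in HOM and 23.8 ± 4.86 in WT (SD, n = 4 each), a ratio of 3.70 and a difference of 1.39 ± 0.13 (SE) with a limma adjusted p of 4.48e-06. With an offset of 1 in place of 16 the difference was 1.85. The exact two-sided permutation test gave p = 0.0286 for Tlr4 and for each Ptpn5 probe set, the smallest value that 70 splits of 4 against 4 arrays allow, and 0.0286 after Benjamini-Hochberg adjustment over the 3 tests. Groups without overlap always give this value, and both genes were picked with earlier results of these data known. The test is therefore no separate support, and its adjustment does not cover that choice. The HET arrays averaged 64.6 ± 8.42 for Tlr4 and 1028 ± 231 for the first Ptpn5 probe set, between the HOM and WT means in each case.

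Over the whole array, 4 of 45037 probe sets passed a limma adjusted p of 0.05, which is 0.00888%. They were Tlr4 and Tmem114, both higher in HOM, and the pair of Ptpn5 probe sets, both lower. Tmem114 encodes a transmembrane protein of the claudin family. It read 88.2, 161, 171 and 116 in the HOM arrays, against 55.1, 41.1, 66.0 and 55.0 in the WT arrays, with no overlap. Its difference was 1.07 ± 0.17 (SE) with a limma adjusted p of 0.0279. That call was lost after median centring (0.97, adjusted p = 0.160) and after quantile normalization (adjusted p = 0.193). It was also lost when any one of HOM2, HOM3, WT1, WT2 or WT4 was left out, with limma adjusted p values up to 0.310.

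**Figure D1:**
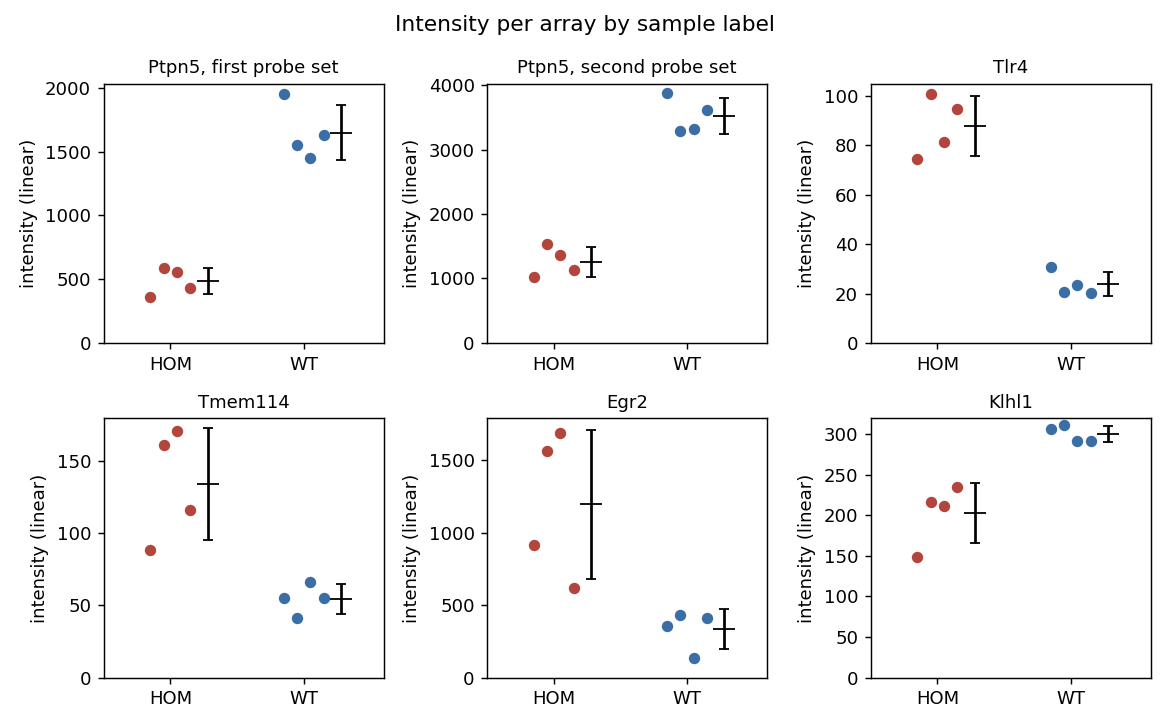
Linear intensity of 6 probe sets in each HOM array (red) and each WT array (blue), with the group mean and SD (n = 4 each) in black. Both Ptpn5 probe sets and Klhl1 sit lower in every HOM array than in any WT array, while Tlr4, Tmem114 and Egr2 sit higher; the vertical axes start at 0 and differ between panels.

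At an unadjusted p under 0.05 the array leaned one way as deposited and not after centring. As deposited, 1362 probe sets (3.02%) reached that level, of which 1268 (2.82%) were higher and 94 (0.209%) lower in HOM. About 5% would reach it if no probe set differed, so 3.02% is not an excess. The median difference over all tested probe sets was 0.092. Array medians were 143, 201, 172 and 174 in the HOM arrays, against 164, 168, 154 and 154 in the WT arrays, so HOM1 had the lowest and HOM2 the highest median of the 8. When each array was centred on its median, 1765 probe sets (3.92%, also under 5%) reached the same level, 847 higher (1.88%) and 918 lower (2.04%). The share of higher ones was 93.1% as deposited, 48.0% after centring and 53.0% after quantile normalization. Counts of gene lists are therefore given below as deposited and centred. Centring left 4 calls, of which 3 were the Ptpn5 pair and Tlr4 (-1.84, -1.58 and 1.29). The fourth was Klhl1, described below.

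**Figure D2:**
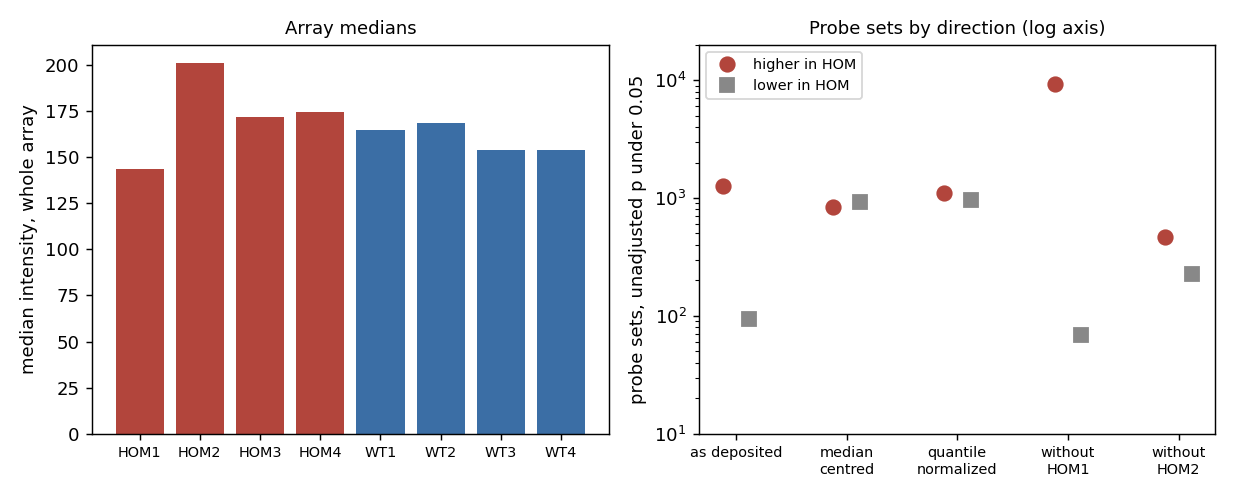
Left, median intensity of each HOM array (red) and each WT array (blue), between 143 and 201. Right, count of probe sets with an unadjusted p below 0.05, on a log axis, higher in HOM (red circles) and lower in HOM (grey squares), under 5 settings; the 1268 higher and 94 lower as deposited became 847 and 918 after median centring.

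Gene names come from the listed table, whose 4423 probe sets were chosen on these same mice. They cover 2832 genes with a single symbol, so shares among listed genes are shares of a selected set. Of the listed genes, 19.3% (546) were higher and 1.38% (39) lower at an unadjusted p under 0.05 as deposited, and 13.4% (380) and 1.55% (44) after centring. The median difference of the listed genes was 0.18 as deposited and 0.091 centred. The HOM and WT arrays did not overlap for 7.84% of listed genes, against 1.37% of all probe sets.

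The 12 genes with the smallest p among those higher in HOM began with Tlr4 and Tmem114. The third was Tagln, which binds actin in smooth muscle and is the one listed gene of the vessel wall markers. Tagln read 310, 614, 635 and 337 in the HOM arrays, against 253, 156, 211 and 212 in the WT arrays. Its groups did not overlap and its difference was 1.08 ± 0.20 with a limma adjusted p of 0.0941. Pitpnm3, a membrane-associated phosphatidylinositol transfer protein, read 849, 1012, 873 and 820 in the HOM arrays, against 507, 537, 551 and 514 in the WT arrays. All WT arrays of Pitpnm3 lay below every HOM array, a difference of 0.73 ± 0.14 with a limma adjusted p of 0.139.

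Egr2, a zinc finger transcription factor induced by neuronal activity, read 913, 1564, 1686 and 616 in the HOM arrays, against 356, 435, 138 and 411 in the WT arrays. The lowest HOM array thus stood above the highest WT array. The difference was 1.79 ± 0.34 with a limma adjusted p of 0.139, and a second probe set of Egr2 gave 1.75. Dlk1, a transmembrane protein of the Notch ligand family, read 143, 438, 208 and 204 in the HOM arrays, against 81.1, 20.5, 135 and 29.4 in the WT arrays. Its difference of 1.80 on this probe set compares with 0.38 on its other listed one. Cdkn1a, an inhibitor of cyclin-dependent kinases induced by p53, read between 321 and 369 in the HOM arrays and between 186 and 238 in the WT arrays, a difference of 0.66.

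The other members of the 12 did not pass adjustment either. Mesdc2 (now Mesd), a chaperone for receptors of the LDL receptor family, differed by 0.78. Gm10451 differed by 0.92, and Bcat2, the mitochondrial branched-chain aminotransferase, by 0.69. Dsp, the desmosome protein desmoplakin, differed by 0.74, and Pim1, a serine/threonine kinase, by 0.64. The groups did not overlap for 11 of these 12 genes, against 1.37% of all probe sets and 7.84% of listed genes. These 12 were picked for their small p in the same contrast, so a lack of overlap follows largely from that choice.

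Among the 12 genes with the smallest p that were lower in HOM, Ptpn5 came first and 8 lay on chromosome 7, Ptpn5 itself included. Of the 12 higher ones, 2 lay there (Mesdc2 and Bcat2). For comparison, chromosome 7 held 238 of the listed genes without Ptpn5, and the other chromosomes held 2559. Ccdc123 (now Cep89), a centrosomal protein, read between 22.1 and 28 in the HOM arrays, against 37.9 to 75.4 in the WT arrays. Its groups did not overlap, and its difference of -0.77 compares with -0.31 on its other listed probe set. Sult2b1, a sulfotransferase that acts on sterols, read 175, 110, 133 and 122 in the HOM arrays, against 249, 267, 186 and 243 in the WT arrays. Its difference was -0.75 with a limma adjusted p of 0.251.

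Klhl1, a neuronal actin-binding protein of the kelch family on chromosome 14, read 149, 216, 211 and 234 in the HOM arrays, against 306, 311, 291 and 292 in the WT arrays. The WT arrays of Klhl1 were close together and all above the HOM arrays. As deposited the difference was -0.55 ± 0.15 with a limma adjusted p of 0.908, and after median centring it was -0.64 with an adjusted p of 0.0403. Quantile normalization gave -0.67 with an adjusted p of 0.0163. A second Klhl1 probe set differed by -0.55 as deposited, and its centred adjusted p was 0.371.

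Leaving out a single array moved the size of the difference in 3 of the remaining genes. Nav2, a neuronal microtubule-associated protein, read 149, 155, 143 and 10.8 in the HOM arrays, against 264, 257, 212 and 261 in the WT arrays. Its difference was -1.33 with HOM4 and -0.68 without it, and a brighter probe set of Nav2 gave 0.018. Gdpd3, a phosphodiesterase of the glycerophosphodiester family, read 20.0, 342, 21.0 and 706 in the HOM arrays, against 455, 449, 435 and 355 in the WT arrays. HOM1 and HOM3 were thus far below all WT arrays, and HOM4 above them. Its difference was -1.68, and -1.04 without HOM1 or -1.06 without HOM3. Ctgf (now Ccn2), a secreted matricellular protein that also marks deep cortical neurons, differed by -0.81, and by -0.50 without WT4.

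Mesdc1 (now Tlnrd1), a protein with a talin rod domain, read 45.5, 73.8, 64.0 and 117.66 in the HOM arrays, against 164, 146, 148 and 118.47 in the WT arrays, so that HOM4 and WT4 nearly met. Its difference was -0.86. Dpy19l3, a C-mannosyltransferase, differed by -0.63, and Csrp3, a LIM domain protein of striated muscle, by -0.41. Reg1, a secreted C-type lectin, differed by -0.49, and Treml2, a receptor of myeloid and lymphoid cells, by -0.35. The groups did not overlap for 8 of the 12 genes lower in HOM, and for 9 after centring. The shares were 1.37% and 2.07% of all probe sets, and 7.84% and 6.64% of listed genes. These 12 too were picked for their small p in the same contrast, so a lack of overlap follows largely from that choice.

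The genes of chromosome 7 were set against those of the other chromosomes, in the gene order of the RefSeq table of GRCm38.p6. Without Ptpn5, chromosome 7 held 238 listed genes, of which 12 (5.04%) were lower and 57 higher at an unadjusted p under 0.05. The other chromosomes held 2559 listed genes, of which 26 (1.02%) were lower and 478 higher. After centring the lower shares were 5.04% on chromosome 7 and 1.21% on the others, and the higher shares were 18.1% and 12.9%. Taken singly, chromosomes X (25.9%), 18 (21.8%) and 17 (20.5%) had larger centred higher shares than chromosome 7, and none had a larger lower share. The 12 lower genes were Cyp2s1, Ccdc123, Dpy19l3, Klk6, Sult2b1, Csrp3, Hddc3, Mesdc1, Fah, Folh1, Me3 and Gdpd3. The median difference was the same to 2 decimals, 0.18 on chromosome 7 and 0.18 on the others. No test was made of this difference in shares, since genes are not replicates. The sources used here do not say how much of chromosome 7 came from the strain in which the allele was made, and its part in these differences was not tested.

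Around Ptpn5 itself, the 25 nearest listed genes on each side reached 224 protein-coding genes before it and 144 after it. Of these 50 genes, 15 were higher and 4 (8%) lower at an unadjusted p under 0.05, and their median difference was 0.16. Of all listed genes 19.3% were higher and 1.38% lower at that level. After centring 14 (28%) of the 50 were higher and 4 (8%) lower, against 13.4% and 1.55% of all listed genes. The 4 lower ones were Klk6, a serine protease of oligodendrocytes (-0.53), Sult2b1, Csrp3 and Hddc3, a hydrolase with an HD domain. Hddc3 differed by -0.59, and by -0.23 without HOM1. Sult2b1 lay 34 genes before Ptpn5, Csrp3 18 after and Nav2 20 after.

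Higher genes lay in the same stretch. Bcat2 was 49 genes before Ptpn5, and Kcnj14, an inward rectifier potassium channel (0.44), 31 before. Grin2d, an NMDA receptor subunit (0.27), and Sphk2, a sphingosine kinase (0.30), were also among the 15. Those after Ptpn5 included Luzp2 (0.45), Akap13, an anchoring protein for protein kinase A (0.39), Furin, a proprotein convertase (0.37), and Crtc3, a coactivator of CREB (0.27). Magel2, an imprinted gene, differed by 0.36, and by 0.20 without HOM2. Others were 1700008O03Rik, Nucb1, Hsd17b14, Lrrk1 and Rlbp1, between 0.26 and 0.31. Mesdc1 and Mesdc2 are neighbours in gene order, 174 and 175 genes after Ptpn5, with differences of opposite sign.

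**Figure D3:**
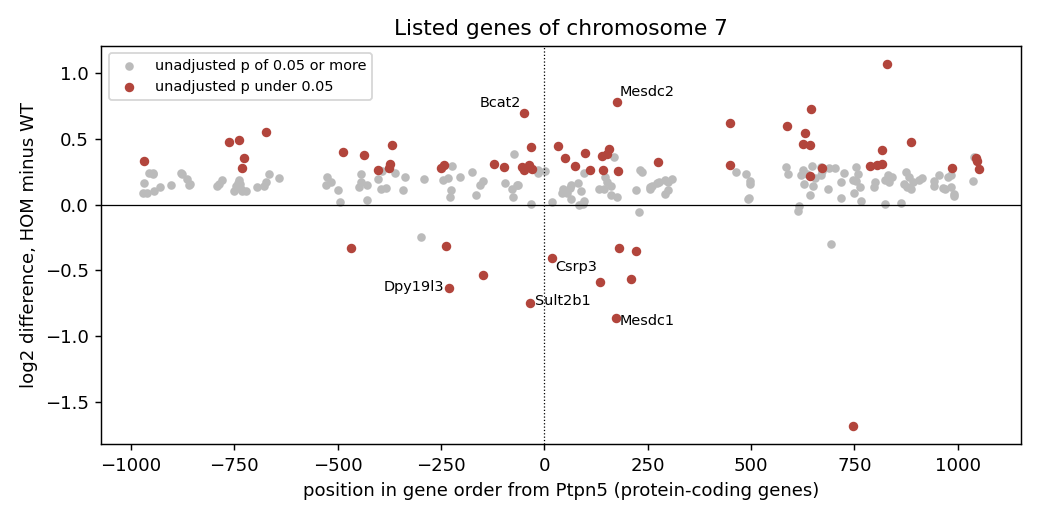
Log2 difference (HOM minus WT) of the 232 listed protein-coding genes of chromosome 7 other than Ptpn5, by place in the order of protein-coding genes counted from Ptpn5 at 0. Genes at an unadjusted p under 0.05 are red (53 above 0 and 12 below), and the neighbours Mesdc1 and Mesdc2 lie on opposite sides of 0.

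Activity-regulated genes leaned higher in HOM than in WT, with no member passing adjustment. Most HET arrays reached levels like those in HOM, as given below. Of 41 genes on the list, 27 were listed. As deposited, 22 of the 27 were higher and 1 lower at an unadjusted p under 0.05, against 19.3% and 1.38% of all listed genes. After centring 16 were higher and 0 lower, against 13.4% and 1.55%. By sign alone 26 were higher under both scales, and the exception was Nr4a2. The median difference of the 27 was 0.47 as deposited and 0.37 centred, against 0.18 and 0.091 for all listed genes. These 27 were selected into the listed table on the same mice, and the other 14 have no named probe set here. Leaving out WT3 reduced the 22 to 11 and leaving out HOM2 to 14, the lowest of the 8 omissions, and quantile normalization gave 14. HOM and WT arrays did not overlap for 8 of the 27, and for 7 after centring, against 7.84% and 6.64% of listed genes.

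After Egr2, the largest differences were those of Fos, Arc and the Nr4a receptors. Fos, a subunit of the transcription factor AP-1, read 934, 871, 1771 and 656 in the HOM arrays, against 234, 987, 242 and 438 in the WT arrays. The WT2 array lay above 3 of the 4 HOM arrays, and the difference was 1.28 ± 0.35. Arc, a postsynaptic protein that governs AMPA receptor removal, read 1643, 1405, 2376 and 873 in the HOM arrays, against 610, 1906, 417 and 819 in the WT arrays. Arc overlapped through the same WT2 array and differed by 0.88 ± 0.34, and by 0.58 without WT3. Nr4a1, an orphan nuclear receptor, differed by 0.70 ± 0.25, its relative Nr4a3 by 0.70 ± 0.20, and Egr1 by 0.39 ± 0.15 (0.20 without WT3).

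Some members with smaller differences separated the groups more cleanly. Nptx2, a secreted pentraxin that clusters AMPA receptors, read 842, 900, 820 and 1000.5 in the HOM arrays, against 544, 584, 647 and 633 in the WT arrays. Its groups did not overlap and its difference was 0.55 ± 0.14. Scg2, a secretogranin of dense-core vesicles, read 4667, 7995, 6697 and 5507 in the HOM arrays, against 4362, 3652, 4823 and 3995 in the WT arrays. Only HOM1 fell below the highest WT array, and the difference was 0.54 ± 0.14. Homer1, a postsynaptic scaffold, differed by 0.60 ± 0.17, but its groups overlapped as deposited and after centring. Klf4 (0.47), Fosb (0.55), Sik1 (0.43), Tiparp (0.53), Trib1 (0.31) and Per1 (0.33) had no overlap as deposited. Of these, Fosb and Trib1 overlapped after centring. Jund (0.15), Bdnf (0.12, and 0.025 to 0.22 over single omissions), Ier5 (0.16, from 0.054) and Fosl2 (0.33, from 0.12 without WT3) did not reach an unadjusted p under 0.05.

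Nr4a2, which is induced by activity and also marks deep cortical neurons, read 616, 105, 125 and 580 in the HOM arrays, against 230, 915, 727 and 1073 in the WT arrays. Its difference was -1.21 ± 0.52, and -0.81 without HOM2. HOM2, HOM3 and WT1 were its 3 lowest arrays. Slc17a7, the vesicular glutamate transporter of cortical neurons, was also lowest in these arrays, at 300, 218 and 199, against 1011 and 885 in HOM1 and HOM4 and between 432 and 803 in WT2, WT3 and WT4. Over the 10 listed markers of cortical excitatory neurons, of 20 on that list, the summed intensity ranged from 5663 to 11134 in HOM and from 4790 to 11483 in WT. At an unadjusted p under 0.05, 1 gene of this list was higher (Tshz2, 0.88) and 2 lower (Ctgf and Nr4a2). After centring 1 was higher and 1 lower. Of all listed genes 19.3% were higher and 1.38% lower at that level, and 13.4% and 1.55% after centring. The median of the list was 0.088 as deposited and -0.0037 centred. The part of cortical tissue in the activity-regulated values was not tested.

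**Figure D4:**
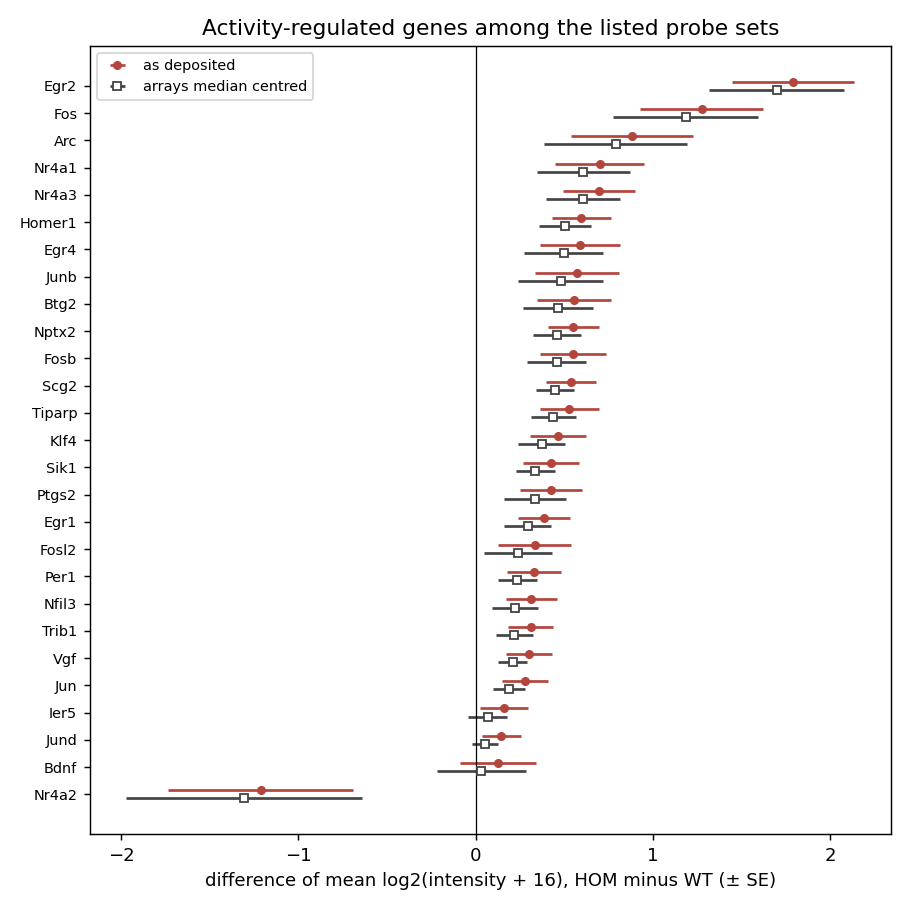
Difference of mean log2(intensity + 16), HOM minus WT, with its SE for the 27 listed activity-regulated genes, as deposited (red circles) and with arrays median centred (open squares). Of the 27, 26 lie above 0 on both scales and Nr4a2 lies below it.

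The mean centred log2 level of the 27 genes was between 1.74 and 2.02 above the array median in the HOM arrays, against 1.28 to 1.72 in the WT arrays. In the HET arrays it was between 1.51 (HET4) and 2.02. Apart from HET4 these arrays lay within the HOM range, so the higher level was not particular to HOM. The HOM and WT levels did not overlap, and HOM4 and WT4 differed by little. In HOM4, 23 of the 27 genes stood above their WT mean, and in WT4 likewise 23, whereas in WT3 8 did. Fewer cells of a type and less RNA per cell cannot be told apart in such bulk tissue.

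**Figure D5:**
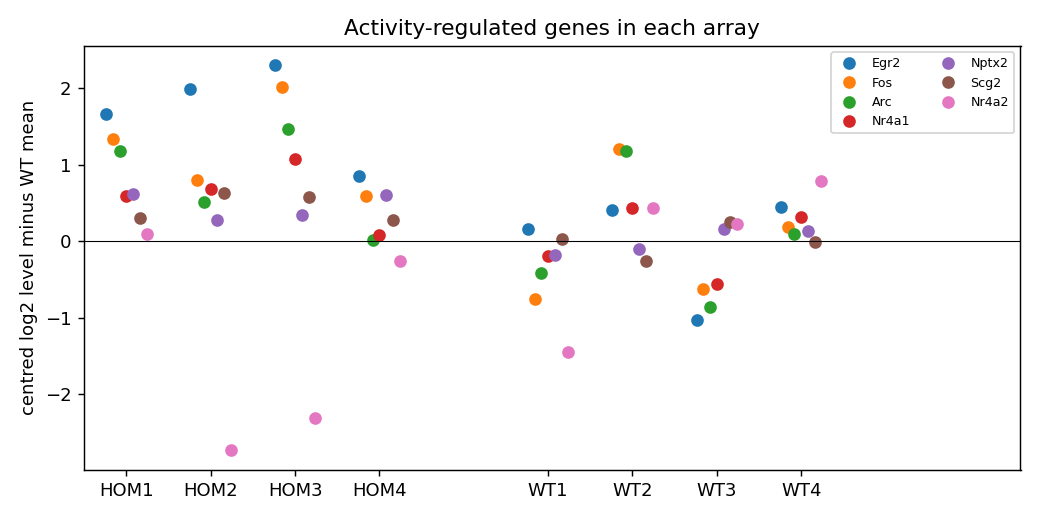
Centred log2 level of 7 activity-regulated genes in each HOM and each WT array, relative to that gene's mean in the 4 WT arrays; each colour is 1 gene, and genes are offset sideways within an array. Egr2 is above its WT mean by more in every HOM array than in any WT array, Fos and Arc are high in WT2 as well, and Nr4a2 is lowest in HOM2 and HOM3.

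Promoter sequence is shown for the activity-regulated genes that carry a full cAMP response element, the site of CREB, or a CArG element, the site of serum response factor, because both factors are textbook routes from calcium and ERK signals to these genes. RefSeq windows of GRCm38.p6 were available for 21 of the 27, and the 250 bases before the start were searched on both strands. The element TGACGTCA was present in 2 of 21 (9.52%), against 1.77% of 27025 genes. A CArG element was present in 1 of 21 (4.76%), against 1.62% of all. The stretches below run 5′ to 3′ on the gene's strand, with the element in capitals, and lie at chr1:79440077-79440104 (-) for Scg2, chr1:134079304-134079331 (-) for Btg2, and chr10:67537787-67537816 (+) and chr10:67537484-67537513 (+) for Egr2, which has several annotated starts.
Scg2: gctgagccggTGACGTCAgcgtggaatg
Btg2: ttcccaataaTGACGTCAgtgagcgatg
Egr2, downstream element: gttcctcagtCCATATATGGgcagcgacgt
Egr2, upstream element: cggatcttctCCTTTTTTGGaaagtctcgg
The differences of these genes were 0.54 for Scg2, 0.56 for Btg2 and 1.79 for Egr2. A match describes the sequence alone, and the CRE and CArG elements do not overlap each other in these stretches.

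Feedback regulators of the MAP kinase pathway had 8 of 19 genes listed, of which 3 were higher and 0 lower at an unadjusted p under 0.05. That level was reached upwards by 19.3% of all listed genes. The median of the 8 was 0.24, against 0.18 for all listed genes, and no member passed adjustment. Dusp4, a nuclear phosphatase for ERK, read 104, 171, 96.7 and 182.5 in the HOM arrays, against 64.6, 75.7, 88.8 and 67.8 in the WT arrays. Its difference was 0.74, with no overlap as deposited but with overlap after centring. Dusp14, another dual-specificity phosphatase, differed by 0.44, and by 0.27 without WT3, and Spred3, an inhibitor of Ras signalling, by 0.28. After centring 2 of the 8 were higher at that level, against 13.4% of all listed genes. The groups did not overlap for 2 of the 8 as deposited and for 0 after centring, against 7.84% and 6.64% of listed genes.

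Other tyrosine phosphatases had 10 of 33 genes listed, 2 of them higher and 0 lower at an unadjusted p under 0.05 on both scales. That is close to the 19.3% higher among all listed genes. They were Ptprf, a receptor phosphatase of axons and synapses (0.40), and Ptpn12, a phosphatase of adhesion signalling (0.31). Of the 11 STEP substrates and partners on the list, Grin2b, the NMDA receptor subunit GluN2B, was the 1 listed. It averaged 2165 ± 287 in HOM and 1957 ± 68.4 in WT, a difference of 0.14, and of 0.059 without HOM2.

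The toll-like receptor pathway beyond Tlr4 had 8 of 43 genes listed, with 2 higher and 0 lower at an unadjusted p under 0.05 and a median of 0.17, near the 0.18 of all listed genes, of which 19.3% were higher. After centring 1 was higher. The 2 were Irak3, a kinase-like brake on these receptors (0.44), and Nfkbia, the inhibitor of NF-kappaB (0.27, which did not reach that level after centring). Ly96, the coreceptor of Tlr4, differed by 0.15, and by 0.062 without HOM4. Microglial markers had 2 of 15 genes listed, Itgam (0.41) and Fcrls (0.31), both higher at that level on both scales. Their summed intensity was 570 to 730 in HOM and 502 to 517 in WT. The part of microglial content in the Tlr4 values was not tested.

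Glutamate receptors and scaffolds had 16 of 34 genes listed, all 16 higher in sign as deposited, as were 2695 of the 2832 listed genes. At an unadjusted p under 0.05 there were 5 higher, against 19.3% of all listed genes, including Grik1, a kainate receptor subunit (0.40, and 0.23 without HOM4), and Dlgap4, a scaffold protein (0.29). After centring 0 of the 16 reached that level and 1 turned negative in sign. Vesicle release genes had 21 of 35 listed, 21 higher in sign and 3 at that level, a smaller share than the 19.3% of all listed genes, including Unc13c, a priming factor (0.37), and the synapsin Syn2 (0.33). After centring 15 of the 21 were higher in sign and 0 reached that level.

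Metabotropic glutamate receptors had 1 of 7 listed, Grm8 (-0.18, and -0.087 without WT2). GABA receptor genes had 4 of 19 listed, with Gabrg1 higher at an unadjusted p under 0.05 on both scales (0.53). Gabra3 differed by 0.36, with a range of 0.20 to 0.57 when single arrays were left out. Potassium channels had 9 of 35 listed, 2 higher, namely Kcnd3 (0.48, and 0.31 without HOM4) and Kcna6 (0.25), and after centring 0 reached that level. Of all listed genes 19.3% were higher at that level, and 13.4% after centring.

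Neuropeptide genes had 8 of 15 listed, of which 3 were higher and 0 lower at an unadjusted p under 0.05, and 2 higher after centring, against 19.3% and 13.4% of all listed genes. Crh, corticotropin-releasing hormone, read 178, 411, 148 and 398 in the HOM arrays, against 68.0, 130, 181 and 80.8 in the WT arrays, with overlap, and differed by 1.15 ± 0.37. Cartpt, the precursor of CART peptides, differed by 1.11 ± 0.41 and Nts, neurotensin, by 0.87 ± 0.38, or 0.47 without HOM2. For all 3 genes HOM2 and HOM4 were the highest of the 8 arrays. With single arrays left out, Cck (-0.047) ranged from -0.48 to 0.28, Npy (-0.079) from -0.16 to -0.029, Sst (0.12) from 0.024 to 0.18 and Vip (0.52) from 0.19 to 0.85, and none of these 4 reached that level with all arrays.

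Of all listed genes 19.3% were higher and 1.38% lower at an unadjusted p under 0.05, and 13.4% and 1.55% after centring. Beside these shares, dopamine and cAMP signalling had 3 of 32 genes listed. At that level on both scales, Rgs14, a regulator of G protein signalling, was higher (0.40) and Cnr1, the cannabinoid receptor of striatal neurons, lower (-0.34). Stress genes had 8 of 24 listed, 3 higher and 0 lower (2 higher centred), namely Cdkn1a, Nfkbia and Gadd45g, a DNA damage response gene (0.47). Clock genes had 4 of 20 listed with 1 higher on both scales (Per1), while Clock differed by 0.16, with a range of 0.098 to 0.24 over single omissions. Respiration genes had 3 of 34 listed and 0 at that level. Atp5g1 differed by 0.20 (0.086 without HOM4 and 0.31 without HOM1) and Ndufa12 by 0.16 (0.094 without WT4). Ribosomal protein genes had 3 of 39 listed with Rps15a higher on both scales (0.45), and Rps3 differed by 0.17 (0.10 without HOM2 and 0.26 without HOM1).

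Markers of striatal and other cell types were thinly covered. Markers of D2 neurons, oligodendrocytes, their precursors, and choroid plexus and ependyma had 0 listed members, so those cells could not be checked by name. Of markers shared by striatal projection neurons 1 of 20 was listed, Arpp21, at 2369 ± 247 in HOM and 2118 ± 211 in WT (SD, n = 4 each), a difference of 0.16. Of D1 neuron markers 2 of 11 were listed, Eps8 (0.45, and 0.26 without HOM4) and Eya1 (-0.15, and -0.087 without HOM1 or -0.098 without WT1). As deposited Eps8 was higher at an unadjusted p under 0.05, whereas after centring Eps8 did not reach that level (0.36) and Eya1 did, lower in HOM (-0.24) with no overlap. Interneuron markers had 5 of 14 listed and 0 at an unadjusted p under 0.05. Among them Kcnc1 differed by 0.27, and by 0.14 without HOM4. Across all listed genes 19.3% were higher and 1.38% lower at that level, and 13.4% and 1.55% after centring. After centring, 6.64% of listed genes had no overlap. With so few members listed, these counts say little about the cells.

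Astrocyte markers had 2 of 14 listed, with Gfap lower on both scales (-0.47) and Aldoc at 0.20, or 0.058 without HOM4. The blood marker listed was Alas2, an enzyme of haem synthesis in red cells, at -0.97, or -0.38 without WT2. Aldh1a2, a marker of the meninges, differed by 0.35. Vessel markers had 1 of 18 listed, Tagln. Markers of neighbouring regions had 5 of 20 listed and 3 higher at an unadjusted p under 0.05 (2 centred). The 3 were Dsp, Baiap3 (0.61) and Dlk1, whose brighter probe set used here gave 0.38, or 0.21 without HOM2. Of all listed genes 19.3% were higher and 1.38% lower at that level, and 13.4% and 1.55% after centring. The summed intensity of the 5 listed markers was 1162 to 1711 in HOM and 997 to 1152 in WT. The part of neighbouring tissue in the genes above was not tested.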

How the data were processed

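The deposited intensity values were made by the authors with PLIER, per the submitters' processing notes, and are linear and not on a log scale; the sources used here do not give its version, the array type or the genome build. Each array is 1 sample, and arrays have no read depth, so their number limits the precision. The value table holds 45101 probe sets; 64 Affymetrix controls were left out and 45037 tested. The authors' folds and p-values were not used.

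Limma 3.58.1 (R 4.3.3) was fitted to log2(intensity + 16) of all 13 arrays with genotype alone in the model and an intensity trend (two-sided, Benjamini-Hochberg over 45037 probe sets, threshold 0.05). On simulated data of 45037 probe sets for this contrast, 46% of changes of 0.5 log2 and 100% of changes of 1 or more were recovered, with 12 false calls. The simulated noise was normal and independent between probe sets, without array-wide shifts. These figures therefore do not cover the shifts in scale between the real arrays. Ptpn5 and Tlr4 also had exact permutation tests.

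Of the 4423 listed probe sets, 3581 have 1 gene symbol, 49 several and 793 none; by Entrez ID, 3543 were found in RefSeq (GRCm38.p6) for current names, chromosomes and gene order. For list counts each gene is its probe set with the highest mean. Named genes are Ptpn5, Tlr4, the 12 genes per direction with the smallest p, the 2 members per list with the smallest p, and flanking genes at an unadjusted p under 0.05, of which 1 is not reported here. The other genes named, including the activity-regulated ones beyond that rule, were chosen after their values were seen. The comparison, the members and all lists were chosen with earlier results of these data known.

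The sample titles do not say whether the replicate numbers pair the arrays. Same-numbered HOM and WT arrays had correlations of deviations between -0.554 and 0.010, which cannot exclude pairing. Log2 array correlations were 0.974 to 0.993 within HOM, 0.986 to 0.993 within WT and 0.973 to 0.993 between them. Alternatives were offsets of 1 and 32, brighter probe sets, quantile normalization, median centring, a replicate block, only 8 arrays, no trend, array weights, csv headings and each array left out. The centred list and flanking counts were added after seeing the data.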

Additional observations from a re-analysis of the deposited data

Results flagged for a closer look

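In 164 groups of 4 arrays (the named probe sets in HOM and in WT), 6 had a single array far from the other 3 by Dixon's criterion, which by chance marks about 1 in 20 groups. The Nav2 probe set read 10.8 in HOM4 against 143 to 155 in the other HOM arrays, and 212 in WT3 against 257 to 264 in the other WT arrays. Hddc3 read 237 in HOM1 against 603 to 707 in the other HOM arrays, and 614 in WT2 against 829 to 874 in the other WT arrays. Kcnd3 read 1222 in WT3 against 745 to 760 in the other WT arrays. Gadd45g read 261 in WT2 against 192 to 202 in the other WT arrays.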

How the results depend on the processing

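Tlr4 and both Ptpn5 probe sets kept direction and call when any single array was left out (1.33 to 1.47 for Tlr4). Following the csv headings turned the sign of all 82 named probe sets, to -1.39 for Tlr4, 1.75 and 1.49 for Ptpn5 and -1.07 for Tmem114. That fit estimated the spread from the 4423 listed probe sets alone, and gave Tmem114 a limma adjusted p of 0.273. An exchange of headings by itself changes the sign and not the p-value. Array weights turned Gabra3 to -0.20. The 4 calls became 2 among 27031 brighter probe sets, 17 with the replicate block, 18 with only the 8 arrays and 8389 with array weights, which gave HOM3 the highest weight and HOM1 one of 0.209. They numbered 3 to 12 with single arrays left out, the 12 without HOM4 and 7 without HOM1. The 1362 at an unadjusted p under 0.05 became 772 among brighter probe sets, 2066 after quantile normalization, 16642 with array weights, and 692 (without HOM2) to 9414 (without HOM1). Without HOM1 99.3% and without HOM2 67.1% of these were higher. List members at that level numbered 61, against 39 after quantile normalization, 40 after centring, and 30 (without HOM2) to 73 with single arrays left out, among them 36 without WT4. The cause of these moves was not tested. In the fit of the 8 arrays Tagln, Pitpnm3, Egr2, Gm10451, Dlk1, Ccdc123 and Mesdc1 also passed adjustment (limma adjusted p of 0.000309 for Egr2 and 0.0466 for Mesdc1). No HOM array deviated most like the WT array of its own number, which does not settle whether the replicate numbers pair the arrays.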

Other observations

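Among the 40614 probe sets outside the listed table, which have no gene name here, 0 passed the limma adjusted p of 0.05 and 384 reached an unadjusted p under 0.05, 349 of them higher in HOM. After centring 1064 did, of which 20.1% were higher, whereas among listed probe sets 633 of 701 were.

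Of the listed probe sets without a symbol, 1 higher in HOM read 300, 342, 302 and 280.5 in the HOM arrays, against 94.0, 84.3, 95.0 and 279 in the WT arrays. The WT4 array stood with HOM. Another, lower in HOM, read 58.7, 97.4, 78.6 and 87.2 in the HOM arrays, against 437, 386, 437 and 67.9 in the WT arrays, so that WT4 again stood apart from WT1 to WT3. The HET arrays read 282 to 353 for the first and 56.5 to 92.1 for the second. Their differences were 1.22 and -1.60, and neither passed adjustment.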
